A study of Mus musculus with 20 samples.

Results

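The response of intestinal mesenchyme to loss of *Eed* was compared between the embryo and the adult. The genes compared were those tested at both stages, 12962 of the 43280 listed in the count files; 2460 more were tested in the embryo alone, 2077 in the adult alone and 25781 at neither stage. A gene was tested at a stage when its counts passed the expression filter there, and each stage was fitted apart, *Eed* KO against control. Embryonic cells were GFP+ cells sorted at E13.5 from the intestine of Bapx1-cre;Rosa26mTmG controls and Eedfl/fl;Bapx1-cre;Rosa26mTmG mutants, with 2 libraries of each genotype. Adult cells were GFP+ cells sorted from the small intestine, after removal of villi and epithelium, of mice of about 10 weeks carrying *Pdgfrb*-driven Cre-ERT2 and Rosa26mTmG, with *Eed* fl/fl in the mutants, again with 2 libraries of each genotype. The adult mice received 5 daily injections of tamoxifen, and the tissue was taken 2 days after the last one where the methods state it. Controls at both stages carried Cre and the reporter but no floxed *Eed*. The Cre driver, the cells it marks, the time since recombination and the library kit all changed with the stage, so their parts in any difference cannot be told apart from age.

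*Eed* encodes a core subunit of Polycomb repressive complex 2 (PRC2), which binds trimethylated lysine 27 of histone H3 and stimulates the catalytic subunits EZH2 and EZH1 to add more of that mark. PRC2 keeps developmental transcription factors and signaling genes silent in cells that should not use them. Intestinal mesenchyme, in turn, secretes the Wnt, R-spondin and BMP signals that pattern the gut epithelium in the embryo and maintain its stem cells in the adult.

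The embryonic libraries held 30236159 to 36996971 counts in genes and the adult libraries 11404712 to 15903642. The square root of the fitted dispersion, a measure of spread between replicates, was 16.8% in the embryo and 29.1% in the adult. Levels are given below as CPM, a gene's counts relative to the scaled total of its library, scaled within each stage, with control libraries first, and are not compared between stages. The study describes its sequencing replicates as biological, but the labels do not name the animals behind each library, and p-values measure only the spread between these samples. The embryonic libraries differed in sex-linked RNA, with *Xist*, expressed from the inactive X chromosome, at 124 and 43.5 CPM in the controls and at 0.0783 and 55.3 CPM in the *Eed* KO libraries. *Ddx3y*, a gene of the Y chromosome, had 1607 and 2054 counts in the controls and 4514 and 0 counts in the *Eed* KO libraries. Both controls thus held both RNAs, while the 2 *Eed* KO libraries ran opposite ways. *Myh11*, the smooth muscle myosin, was at 1154 CPM in the second embryonic *Eed* KO library and between 196 and 255 CPM in the other 3.

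*Eed* itself was measured at 37.7 and 39.8 CPM in the embryonic controls and at 10.6 and 8.46 CPM in the embryonic *Eed* KO libraries (log2 fold change −2.02, SE 0.166, adjusted p = 0.0106). In the adult it was at 29.7 and 33.4 CPM in the controls and at 25.7 and 25.1 CPM in the libraries labelled *Eed* KO (log2 fold change −0.32, SE 0.208, adjusted p = 0.317). The genotypes did not overlap at either stage, as for 18.9% of all genes tested at both stages with lower *Eed* KO values in the embryo and 35.2% in the adult (16.7% and 30.2% with higher ones), but the adult difference did not pass the test, and counts over the whole gene do not resolve the deleted part. The 2 responses of *Eed* differed (adult minus embryonic log2 fold change 1.77, SE 0.271, adjusted p = 0.00281). Of the 11 PRC2 genes tested, *Eed* in the embryo was the only one called at either stage by edgeR or DESeq2. At an unadjusted p under 0.05, 1 rose and 1 fell in the embryo, and 1 rose and 2 fell in the adult. Of all 12962 genes tested at both stages, 1196 passed that limit in the embryo, in either direction. In the adult 2279 of them rose and 2289 fell at that limit. These are the background for the counts at an unadjusted p given below. *Ezh2*, the catalytic subunit of dividing cells, was at 122 and 120 against 110 and 117 CPM in the embryo and at 8.34 and 5.89 against 13.2 and 9.36 CPM in the adult, where the adjusted p was 0.231. *Ezh1*, the other catalytic subunit, was at 55.2 and 47.2 CPM in adult controls and at 32 and 25.6 CPM in adult *Eed* KO libraries, a change of −0.83 on the log2 scale (adjusted p = 0.0331) that missed the fold threshold.

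A differentially expressed gene (DEG) had to change by more than 1 on the log2 scale, in either direction, with an adjusted p below 0.05. Among all genes of each fit, 217 (1.41%) rose and 27 (0.175%) fell in the embryo, against 1856 (12.3%) that rose and 1088 (7.23%) that fell in the adult. Over the genes tested at both stages, 111 (0.856%) rose and 19 (0.147%) fell in the embryo, and 1277 (9.85%) rose and 928 (7.16%) fell in the adult. The same 28 genes (0.216%) rose and 5 (0.0386%) fell at both stages. Another 10 (0.0771%) rose in the embryo and fell in the adult, and 1 (0.00771%), *Myo7a*, did the reverse. DEGs of the embryo alone numbered 73 that rose (0.563%) and 13 that fell (0.1%), and DEGs of the adult alone 1248 (9.63%) and 913 (7.04%). The other 10671 genes (82.3%) were called at neither stage. At the stage of its call, the genotypes of every DEG tested at both stages did not overlap (111, 19, 1277 and 928 genes). A lack of overlap given below for a called gene therefore adds nothing to its call. In the joint fit of the 8 libraries, the response was higher in the adult for 1223 genes (9.44%) and lower for 974 (7.51%). That fit shares an estimate of spread between the stages, 19.2%, against 29.1% in the adult fit alone. Its p-values for the difference can therefore be too small for genes with noisy adult values. Limma voom with weights per stage called 1972 genes.

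The embryonic calls depended on single libraries. Without the first embryonic control the count that rose was 86, and without the first embryonic *Eed* KO library it was 416. The genes that moved the same way at both stages numbered 14 without the first control, 20 without the second and 56 without the first *Eed* KO library, and those that moved opposite ways 4 without the first control and 39 without the first *Eed* KO library. With each library left out in turn, 70 of the 217 genes that rose in the embryo kept their call every time, as did 14 of the 27 that fell, 1239 of the 1856 that rose in the adult and 525 of the 1088 that fell there. Genes described below are separated by this measure.

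Across genes the 2 sets of log2 fold changes were nearly unrelated, with Pearson's r of 0.119 and Spearman's rho of 0.00426 over 12962 genes, which are not independent replicates. The sign was shared by 6408 genes (49.4%), and *Eed* KO values were higher for 44.8% and lower for 54.9% of genes in the embryo, and 47.3% and 52.7% in the adult. Of the 111 genes that rose in the embryo, 28 (25.2%) also rose and 10 (9.01%) fell in the adult, beside 9.85% and 7.16% of all genes tested at both stages. The adult change was positive for 70 of the 111 (63.1%), beside 47.3% of all genes, with a median of 0.51 on the log2 scale. Seen from the adult, the DEGs that rose and those that fell had embryonic medians of 0.02 and 0.03, and 77.4% and 82% of them lay within 0.5 of no change in the embryo, as did 87.9% of all genes. The response differed between stages, by the test of the difference itself, for 61 of the 111 embryonic genes, beside 16.9% of all genes, but the 111 were chosen by the embryonic change that enters this difference. Of those 111, 51 (45.9%) averaged under 1 CPM in the embryonic controls, a level held by 8.36% of all genes tested at both stages. Choosing genes for a rise over the controls favors low control levels, so this share is not independent of the choice.

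**Figure D1:**
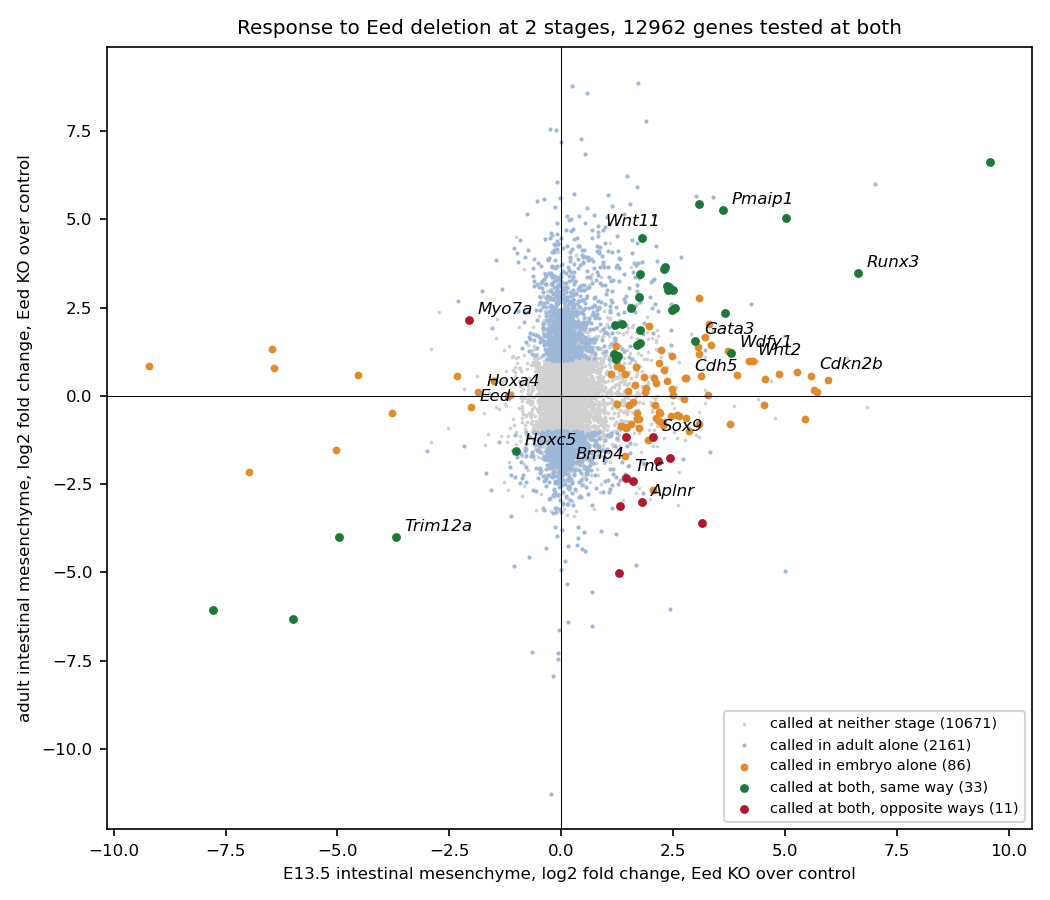
Embryonic log2 fold change (x axis) against adult log2 fold change (y axis), *Eed* KO against control, with 1 point for each of the 12962 genes tested at both stages and colors for the classes of calls. The cloud follows neither diagonal (Pearson's r 0.119), and the adult changes spread wider (SD 1.14) than the embryonic ones (SD 0.538).

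The promoters of 3 genes are shown because they were called at different stages and differ in accessibility: *Wnt2*, called in the embryo alone, *Wnt11*, called in the adult alone, and *Runx3*, called at both stages. None of the 3 kept its calls with each library left out, as given below. Each run is the 250 bases upstream of the RefSeq start in GRCm38.p6, read 5′ to 3′ on the strand of the gene, with CG dinucleotides in capitals. The runs lie at chr6:18030446-18030695 on the minus strand, chr7:98834862-98835111 on the plus strand and chr4:135120395-135120644 on the plus strand.
Wnt2: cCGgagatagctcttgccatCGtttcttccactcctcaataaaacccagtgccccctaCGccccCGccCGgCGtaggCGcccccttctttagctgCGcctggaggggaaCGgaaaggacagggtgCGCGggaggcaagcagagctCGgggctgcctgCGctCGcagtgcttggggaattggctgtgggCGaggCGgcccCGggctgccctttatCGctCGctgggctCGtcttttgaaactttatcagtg
Wnt11: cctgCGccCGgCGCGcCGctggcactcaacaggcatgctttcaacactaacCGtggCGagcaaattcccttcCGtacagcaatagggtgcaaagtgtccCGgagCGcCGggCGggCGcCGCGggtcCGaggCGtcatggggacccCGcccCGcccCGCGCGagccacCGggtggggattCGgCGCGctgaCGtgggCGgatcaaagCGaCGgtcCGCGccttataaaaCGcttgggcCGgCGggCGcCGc
Runx3: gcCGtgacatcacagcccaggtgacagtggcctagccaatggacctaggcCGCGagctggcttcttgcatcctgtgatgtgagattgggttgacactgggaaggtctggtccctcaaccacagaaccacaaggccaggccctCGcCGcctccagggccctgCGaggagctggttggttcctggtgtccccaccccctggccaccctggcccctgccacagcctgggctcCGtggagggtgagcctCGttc
They hold 20, 37 and 8 CG dinucleotides in that order. Of all 32815 RefSeq promoters, 92.1% hold at least 1 CG in the 250 upstream bases and 17.9% at least 20. In the pooled embryonic accessibility data, an open region within 1000 bases of the gene start was called at *Wnt2* with a fold enrichment of 5.81 in the control and 4.61 in the *Eed* KO, and at *Wnt11* with 2.67 and 2.31. None was called at *Runx3* in either genotype. Only the outermost start listed for each gene was examined, so the values do not cover any other start of *Runx3*.

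Genes that rose at both stages included regulators of transcription and of cell death. *Runx3*, a Runt family transcription factor at chr4:135120652-135177990, was at 0 and 0.0334 CPM in embryonic controls and at 1.12 and 2.64 CPM in embryonic *Eed* KO libraries. In the adult it was at 5.42 and 2.59 against 34.3 and 54.5 CPM. Every *Eed* KO library exceeded both controls of its stage, as in all 28 genes of this class. The embryonic counts, 137 against 1, gave a ratio of 122 (95% interval 21.6 to 4860, counting error only; adjusted p = 0.0366), and the adult log2 fold change was 3.47 (SE 0.42, adjusted p = 0.00172). *Pmaip1*, which encodes the proapoptotic protein NOXA, was at 0.195 and 0.2 against 2.35 and 2.56 CPM in the embryo and at 10.3 and 11.6 against 470 and 379 CPM in the adult. Its log2 fold change was 3.61 (SE 0.346, adjusted p = 0.0155) and 5.27 (SE 0.244, adjusted p = 0.000124), and the adult response was the larger by 1.74 (adjusted p = 0.0162, lost without either embryonic control, up to 0.112). *Spint1*, an inhibitor of serine proteases of epithelia, was at 0.139 and 0.134 against 1.04 and 1.32 CPM in the embryo and at 0.293 and 2.73 against 74.5 and 59.5 CPM in the adult. Its genotypes did not overlap at either stage (log2 fold change 3.08 and 5.45).

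*Cd36*, a fatty acid and thrombospondin receptor, was at 0.361 and 0.3 against 4.31 and 4.16 CPM in the embryo and at 67.5 and 52.9 against 298 and 319 CPM in the adult. It rose by 3.65 (SE 0.296, adjusted p = 0.0106) and 2.36 (SE 0.215, adjusted p = 0.00054) on the log2 scale, less in the adult by the test of the difference (−1.23, adjusted p = 0.0235). *Cd93*, a receptor of endothelial and myeloid cells, was at 2.11 and 1.74 against 9.55 and 10.4 CPM in the embryo and at 20.1 and 29.7 against 186 and 247 CPM in the adult. Its rises of 2.37 and 3.12 were not separated by the test of the difference (adjusted p = 0.121). *Wdfy1*, an endosomal adaptor, was at 3.61 and 4.01 against 51.7 and 53.4 CPM in the embryo and at 18.3 and 12.5 against 35.6 and 35 CPM in the adult, and here the adult rise was smaller (log2 fold change 3.79 and 1.20, difference −2.52, adjusted p = 0.000992). Of the 28 genes, *Cd36*, *Cd93*, *Hddc3*, *Pmaip1* and the pseudogene copies *Rps13-ps1* and *Rps15a-ps7* kept both calls with each library left out in turn. *Runx3* and *Spint1* lost the embryonic call without the first control (highest adjusted p 0.0557 and 0.118), *Spint1* also without the second control or the second *Eed* KO library, and *Wdfy1* lost the adult call without the second adult control (adjusted p = 0.0724). *Gata3*, a zinc finger regulator, was at 0.25 and 0.768 against 3.47 and 4.52 CPM in the embryo and at 7.61 and 5.89 against 13.6 and 26.3 CPM in the adult. It passed both tests (adjusted p = 0.0494 and 0.0271) and was lost at either stage when single libraries were left out, up to an adjusted p of 0.0753 without embryonic control 1 or *Eed* KO 2 and of 0.135 without adult control 2 or *Eed* KO 2. *Rps13-ps1*, a ribosomal protein pseudogene, was at 0.0834 and 0 against 44.3 and 30.7 CPM in the embryo and at 0.0732 and 0.14 against 11.2 and 12 CPM in the adult. Reads of such copies can be split with their parent genes, so their counts are uncertain.

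**Figure D2:**
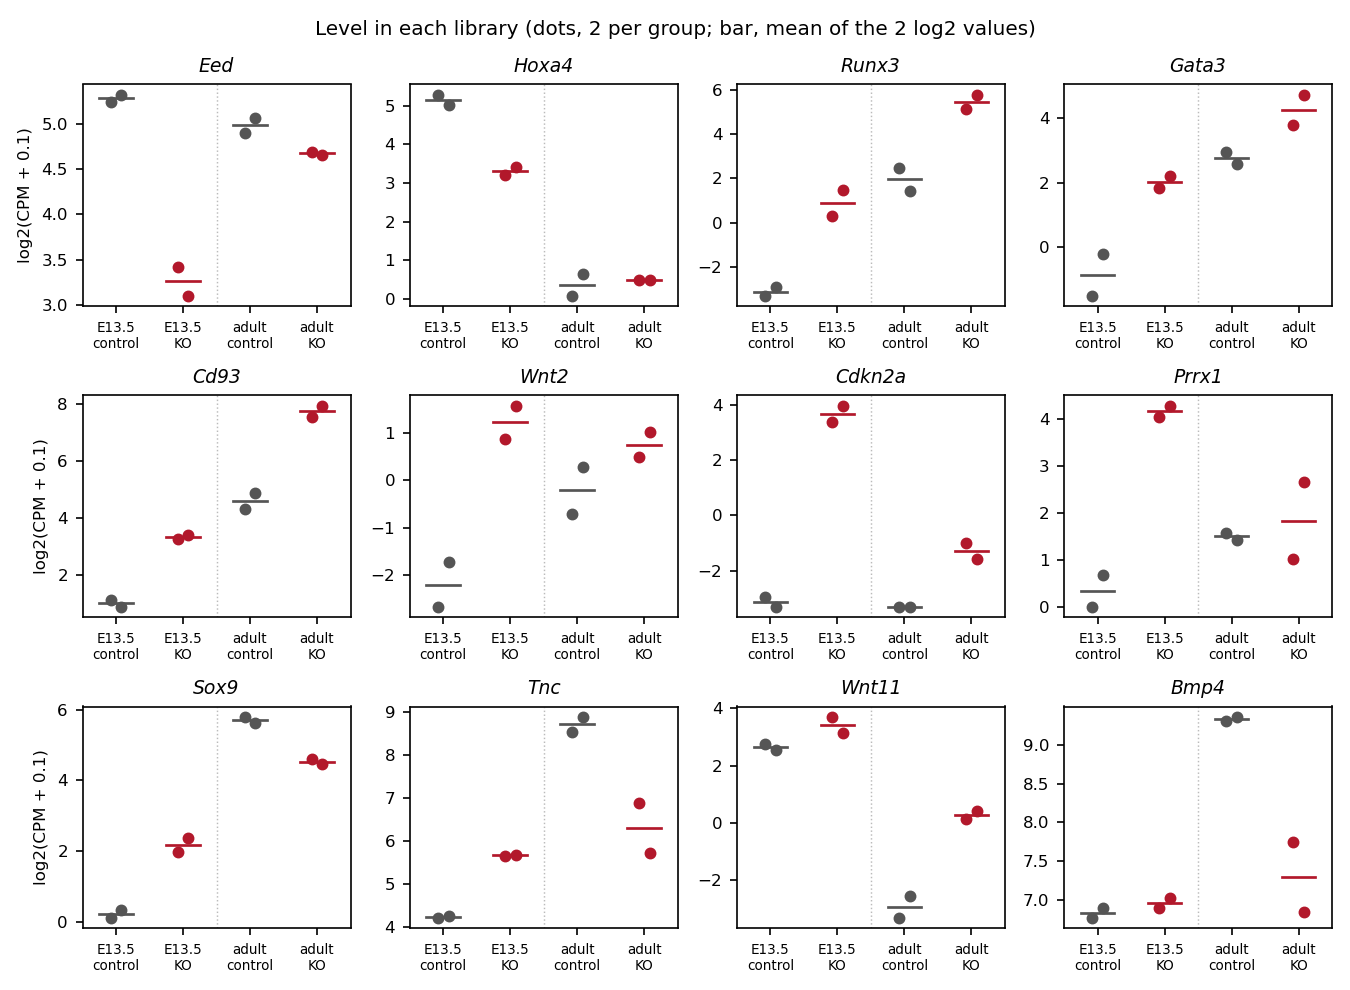
Level of 12 genes as log2(CPM + 0.1), with 1 dot per library, a bar at the mean of the 2 log2 values, control in grey and *Eed* KO in red, and the embryo left of the adult. *Runx3*, *Gata3* and *Cd93* rose at both stages, *Wnt2* and *Prrx1* were called in the embryo alone, *Bmp4* fell in the adult alone, and *Sox9* and *Tnc* moved opposite ways. *Cdkn2a* rose in the embryo and was not tested in the adult.

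Of the 5 genes that fell at both stages, 1 was a Hox gene. *Hoxc5*, a homeobox gene of the central part of its cluster, was at 42 and 35.6 against 18.3 and 20.4 CPM in the embryo and at 24.1 and 21 against 8.83 and 6.34 CPM in the adult. It fell by 1.00 (SE 0.15, adjusted p = 0.042) and by 1.58 (SE 0.29, adjusted p = 0.00915) on the log2 scale, and its embryonic call sat at the fold threshold and was lost without either control or the first *Eed* KO library (highest adjusted p 0.245). *Sycp1*, which encodes a protein of the meiotic synaptonemal complex, was at 1 and 1.17 against 0 and 0.0281 CPM in the embryo and at 4.24 and 4.48 against 0.1 and 0 CPM in the adult. The control to *Eed* KO ratio was 79.6 (95% interval 13.8 to 3190) and 100 (17.6 to 3980), and both calls held with each library left out. The others were the unnamed loci RP23-349K15.2 and *Gm12312* and *Trim12a*, a TRIM family gene. *Trim12a* lies within 20 Mb of *Eed* on chromosome 7, a window that holds 1.6% of all genes tested at both stages. It was at 1.47 and 1.4 against 0.131 and 0.0843 CPM in the embryo and at 36.1 and 24.4 against 2.51 and 1.31 CPM in the adult, with no overlap of genotypes. *Myo7a*, the 1 gene that fell in the embryo and rose in the adult, lies in the same window. An unconventional myosin of hair cells and retina, it was at 16 and 24.4 against 3.76 and 6.01 CPM in the embryo and at 2.56 and 1.68 against 10.1 and 8.66 CPM in the adult (difference 4.26, adjusted p = 0.000953). Its calls held with each library left out. The part of strain-derived sequence linked to the floxed allele was not tested.

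The 10 genes that rose in the embryo and fell in the adult included genes of matrix and secreted proteins. *Col15a1*, a basement membrane collagen, was at 2.53 and 3.44 against 13.4 and 18.6 CPM in the embryo and at 103 and 85 against 34.6 and 20.6 CPM in the adult. It rose by 2.43 (SE 0.258, adjusted p = 0.0208) in the embryo and fell by 1.77 (SE 0.283, adjusted p = 0.00535) in the adult, and was the only one of the 10 to keep both calls with each library left out. *Igfbp3*, a secreted binder of insulin-like growth factors, was at 10.4 and 11.8 against 34.3 and 33 CPM in the embryo and at 154 and 175 against 34.5 and 27.4 CPM in the adult (difference −3.95, adjusted p = 8.68e-05). *Tnc*, the matrix glycoprotein tenascin C, was at 18.2 and 19 against 49.8 and 50.9 CPM in the embryo and at 372 and 473 against 117 and 52.1 CPM in the adult (difference −3.69, adjusted p = 0.000985). In these genes no control library overlapped an *Eed* KO library at either stage, as in all 10 genes of this class.

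*Sox9*, a transcription factor of chondrocytes and of several mesenchymal progenitors, was at 0.973 and 1.17 against 3.81 and 5.11 CPM in the embryo. In the adult it was at 55.7 and 48.8 against 24 and 22.1 CPM. Its log2 fold change was 2.06 (SE 0.286, adjusted p = 0.0353) in the embryo and −1.18 (SE 0.203, adjusted p = 0.00698) in the adult, and the difference was −3.17 (adjusted p = 0.000521). *Aplnr*, the apelin receptor, was at 6.2 and 8.68 against 20.7 and 31.4 CPM in the embryo and at 26.9 and 23.7 against 4.01 and 2.32 CPM in the adult, and *Msc*, the helix-loop-helix factor musculin, at 1.42 and 0.968 against 4.46 and 6.32 CPM and at 52.7 and 49.9 against 19.6 and 8.97 CPM. The remaining 4 were the matrix proteases *Htra1* and *Adamts18*, the synaptotagmin *Syt13* and the chloride channel family gene *Clic6*. All 11 genes that moved opposite ways also passed the test of the difference between stages, which measures the same libraries. The embryonic calls of *Igfbp3*, *Tnc*, *Aplnr*, *Htra1* and *Syt13* were lost without the first control (adjusted p from 0.0534 to 0.113), and that of *Sox9* without the first control or the second *Eed* KO library (up to 0.0941). *Msc* lost its embryonic call without the second control or the second *Eed* KO library (up to 0.063), and *Adamts18* without either control (up to 0.117). In an alternative, the libraries were scaled by the summed counts of 16 fibroblast and mesenchyme markers, among them *Col1a1*, *Col1a2*, *Col3a1*, *Col6a1* and *Col6a2*. This moved the median adult change of all genes by 0.96, and 2 of these 11 genes kept both calls.

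DEGs of the embryo included many developmental regulators. Of 149 developmental transcription factors outside the Hox clusters, 94 were tested in the embryo, where 44 rose, beside 1.41% of all genes, and none fell, also at an unadjusted p under 0.05 and by DESeq2. In the adult 31 of the 149 were tested, of which 2 rose and 8 fell, beside 12.3% and 7.23%, and 53 were at 0 counts in all 4 libraries. The count that rose in the embryo was 19 without the first control, 26 without the second *Eed* KO library and 57 without the first, and 8 with a factor for unwanted variation estimated from the spike-ins. Over the 30 factors tested at both stages the median log2 fold change was 1.15 in the embryo and −0.68 in the adult, and the adult median turned to 0.29 under scaling by the fibroblast markers. *Prrx1*, a homeobox gene of limb and craniofacial mesenchyme, was at 0.889 and 1.5 against 16.4 and 19.5 CPM in the embryo and at 2.85 and 2.59 against 1.91 and 6.18 CPM in the adult. The embryonic genotypes were well apart (log2 fold change 3.92, SE 0.286, adjusted p = 0.00733), the adult ones overlapped (adjusted p = 0.554), and the responses differed (−3.25, adjusted p = 0.0131). *Foxc1*, a forkhead factor of mesoderm, was at 0.278 and 0.735 against 4.88 and 5 CPM in the embryo and at 0.22 and 0.631 against 1.1 and 2.4 CPM in the adult. It did not overlap at either stage, passed in the embryo alone (adjusted p = 0.0322 and 0.122), and the responses were not separated (adjusted p = 0.397). In the adult, 30.2% of all genes tested at both stages had higher *Eed* KO values without overlap. *Osr2*, a zinc finger factor of limb and palate, was at 1.14 and 2.6 against 15.7 and 18.4 CPM in the embryo and at 1.24 and 1.4 against 0.502 and 7.89 CPM in the adult, where the second *Eed* KO library alone was high. The embryonic calls of these 3 genes held with each library left out.

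The cell cycle inhibitors of the *Cdkn2a* and *Cdkn2b* locus, which is silenced by Polycomb in many cell types, rose in the embryo. They were 2 of the 7 cyclin-dependent kinase inhibitors tested there, beside 1.41% of all genes. Of 6 tested in the adult, *Cdkn1a* rose and *Cdkn2c* fell, beside 12.3% and 7.23% of all genes. *Cdkn2b*, which encodes p15, was at 0 and 0.0668 against 1.15 and 2.13 CPM in the embryo and at 1.02 and 1.89 against 0.401 and 3.87 CPM in the adult. The embryonic ratio of counts was 53.5 (95% interval 14.5 to 447), and the call was lost without the first control or the second *Eed* KO library (up to an adjusted p of 0.063). In the adult the genotypes overlapped, and the responses were not separated (adjusted p = 0.0588). *Cdkn2a*, which encodes p16 and p19ARF, was at 0.0278 and 0 against 10.2 and 15.5 CPM in the embryo, a ratio of 843 (151 to 33300). It did not pass the filter in the adult, where both controls were at 0 and the *Eed* KO libraries at 0.401 and 0.232 CPM, 7 counts in all and at least 2.85-fold higher against a floor of 3 counts over the controls. *Cdkn1a*, which encodes the p53 target p21, was at 1.64 and 1.07 against 4.57 and 7.59 CPM in the embryo and at 66.6 and 61.4 against 590 and 1232 CPM in the adult. It rose by 3.83 in the adult (adjusted p = 0.000709), whereas the embryonic value of 2.15 missed the threshold (adjusted p = 0.0529), as did the difference (adjusted p = 0.0509). *Ccnd1*, the G1 cyclin, was at 89.6 and 56.2 against 212 and 257 CPM in the embryo and at 146 and 180 against 124 and 83.2 CPM in the adult (difference −2.27, adjusted p = 0.00414). *Bmi1*, a subunit of the companion complex PRC1, was at 100 and 97.1 against 266 and 233 CPM in the embryo, a rise of 1.34 (adjusted p = 0.0155) lost without either control (up to 0.0735). In the adult it was at 6.15 and 4.83 against 10.2 and 8.74 CPM, and the responses were not separated (adjusted p = 0.22).

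Most endothelial markers also rose in the embryo. Of 14 tested, 8 rose there, beside 1.41% of all genes, among them *Cdh5*, *Plvap*, *Sox18*, *Pecam1*, *Kdr* and *Erg*, and 2 rose in the adult, *Pecam1* and *Cldn5*, beside 12.3%. The count in the embryo was 3 without the first control, and 1 with the spike-in factor. *Cdh5*, the cadherin of endothelial junctions, was at 1.42 and 1.8 against 10.6 and 11.7 CPM in the embryo and at 5.71 and 5.39 against 6.12 and 9.74 CPM in the adult. The embryonic rise of 2.79 (SE 0.222, adjusted p = 0.00984) held with each library left out, the adult value of 0.52 did not pass (adjusted p = 0.38), and the responses differed (−2.21, adjusted p = 0.00996). *Plvap*, a protein of endothelial fenestrae, was at 1.33 and 1.44 against 7.1 and 7.08 CPM in the embryo and at 37.4 and 50.1 against 39.8 and 76.1 CPM in the adult, where the genotypes overlapped. The summed level of the list was 26.3 and 31.4 against 81 and 81 CPM in the embryo and 196 and 214 against 270.2 and 430 CPM in the adult. In bulk libraries, more cells of a type and more RNA per cell cannot be told apart. Another embryonic DEG was *Zc3hav1*, an antiviral RNA-binding protein, at 2.28 and 2.71 against 13.8 and 19.4 CPM in the embryo and at 94.1 and 65.4 against 68.5 and 80.5 CPM in the adult, where the genotypes overlapped. Of the interferon response and MHC class I list, 10 of 28 tested rose and 2 fell in the adult, beside 12.3% and 7.23% of all genes. In the embryo 2 of 19 rose, *Psmb8* and *Tap1*, beside 1.41% of all genes. Both were lost when single libraries were left out (without the first control, and without the second *Eed* KO library for *Psmb8* or the second control for *Tap1*, up to 0.145 and 0.112).

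Hox genes, which set position along the body axis, moved in both directions in the embryo. Of 38 tested, 4 rose, *Hoxb9*, *Hoxb13*, *Hoxc9* and *Hoxc13*, and 4 fell, *Hoxa4*, *Hoxa5*, *Hoxb5* and *Hoxc5*, beside 1.41% and 0.175% of all genes. At an unadjusted p under 0.05, 17 rose and 10 fell. The genes that rose belong to the paralog groups numbered 9 and 13, and those that fell to 4 and 5. In the adult 19 were tested, of which none rose and 3 fell, beside 7.23% of all genes, *Hoxc4*, *Hoxc5* and *Hoxd8*; at an unadjusted p under 0.05 none rose and 9 fell there, and DESeq2 called 4 that fell. *Hoxa4* was at 38.9 and 32.4 against 9.11 and 10.5 CPM in the embryo and at 0.951 and 1.47 against 1.3 and 1.31 CPM in the adult. The embryonic fall of 1.86 (SE 0.169, adjusted p = 0.0136) held with each library left out and differed from the adult value (2.03, SE 0.447, adjusted p = 0.0141). In its own fit the adult value had an SE of 0.632, larger than that of the difference, since the joint fit shares its spread between the stages. *Hoxb5* was at 19.7 and 20.3 against 8.98 and 8.46 CPM in the embryo and at 15.8 and 12.5 against 13.8 and 14.5 CPM in the adult. Its embryonic call and that of *Hoxa5* were lost without either control (up to 0.0811 and 0.0954), as was that of *Hoxc9* (up to 0.0743), and *Hoxc13* was lost without any 1 embryonic library (up to 0.135). *Hoxb9* was at 0.75 and 0.534 against 16.9 and 16.9 CPM in the embryo, a rise of 4.70 (SE 0.237, adjusted p = 0.00401), and at 0.541 CPM or less in the adult *Eed* KO. *Hoxb13*, the most posterior gene of its cluster, had no count in the embryonic controls and was at 6.42 and 8.71 CPM in the *Eed* KO, 556 counts and at least 165-fold higher. In the adult it was at 0.201 CPM in 1 library and 0 in the others. *Hoxc4* was at 22 and 21.1 against 17.4 and 18.3 CPM in the embryo and at 76.5 and 67.5 against 25.7 and 22 CPM in the adult, where it fell by 1.60 (SE 0.203, adjusted p = 0.00215). *Hoxd8* was at 12.5 and 12.9 against 24.5 and 24.6 CPM in the embryo and at 5.49 and 5.67 against 1.61 and 1.62 CPM in the adult. Its embryonic change of 0.95 stayed under the fold threshold, its adult fall of 1.78 was lost without any 1 adult library (up to 0.133), and the responses differed (−2.68, adjusted p = 0.00137). Under scaling by the spike-in totals, which moved the median change of all genes by 1.85 in the embryo and −0.42 in the adult, 10 Hox genes rose and none fell in the embryo. *Hoxa11*, a posterior gene, was at 13.1 and 12.8 against 18.2 and 13.4 CPM in the embryo and at 0 in all 4 adult libraries.

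Many embryonic DEGs could not be followed into the adult. Of the 217 that rose, 106 did not pass the adult filter, 33 of them with no count in any adult library and 98 with no adult library at 1 CPM or above. Their summed adult level was 13.7 and 13 CPM in the controls and 15.2 and 18.8 CPM in the *Eed* KO libraries. Of these genes, 44 averaged higher in the adult *Eed* KO, 29 higher in the control and 33 were equal at 0. *Barx1*, a homeobox gene of stomach mesenchyme, was at 0.528 and 1.47 against 9.37 and 13 CPM in the embryo, a rise of 3.51 (SE 0.452, adjusted p = 0.0326) that held with each library left out. In the adult it was at 0 in 3 libraries and at 0.301 CPM in the first *Eed* KO library. *Tbx5* of heart and forelimb and *Vax2* of the ventral eye had no count in the embryonic controls and were at least 73.7-fold and at least 96.3-fold higher in the *Eed* KO. *Gata4*, a factor of heart and foregut, was at 1 and 1.37 against 10.1 and 20.2 CPM in the embryo and at 0.201 CPM or less in the adult. In the other direction, 579 genes that rose and 160 that fell in the adult did not pass the embryonic filter, 194 and 92 of them with no embryonic count. Of these, *Cd74*, the invariant chain of MHC class II, was at 2128 and 2845 against 77750 and 90760 CPM in the adult and at 0.112 CPM or less in the embryo.

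**Figure D3:**
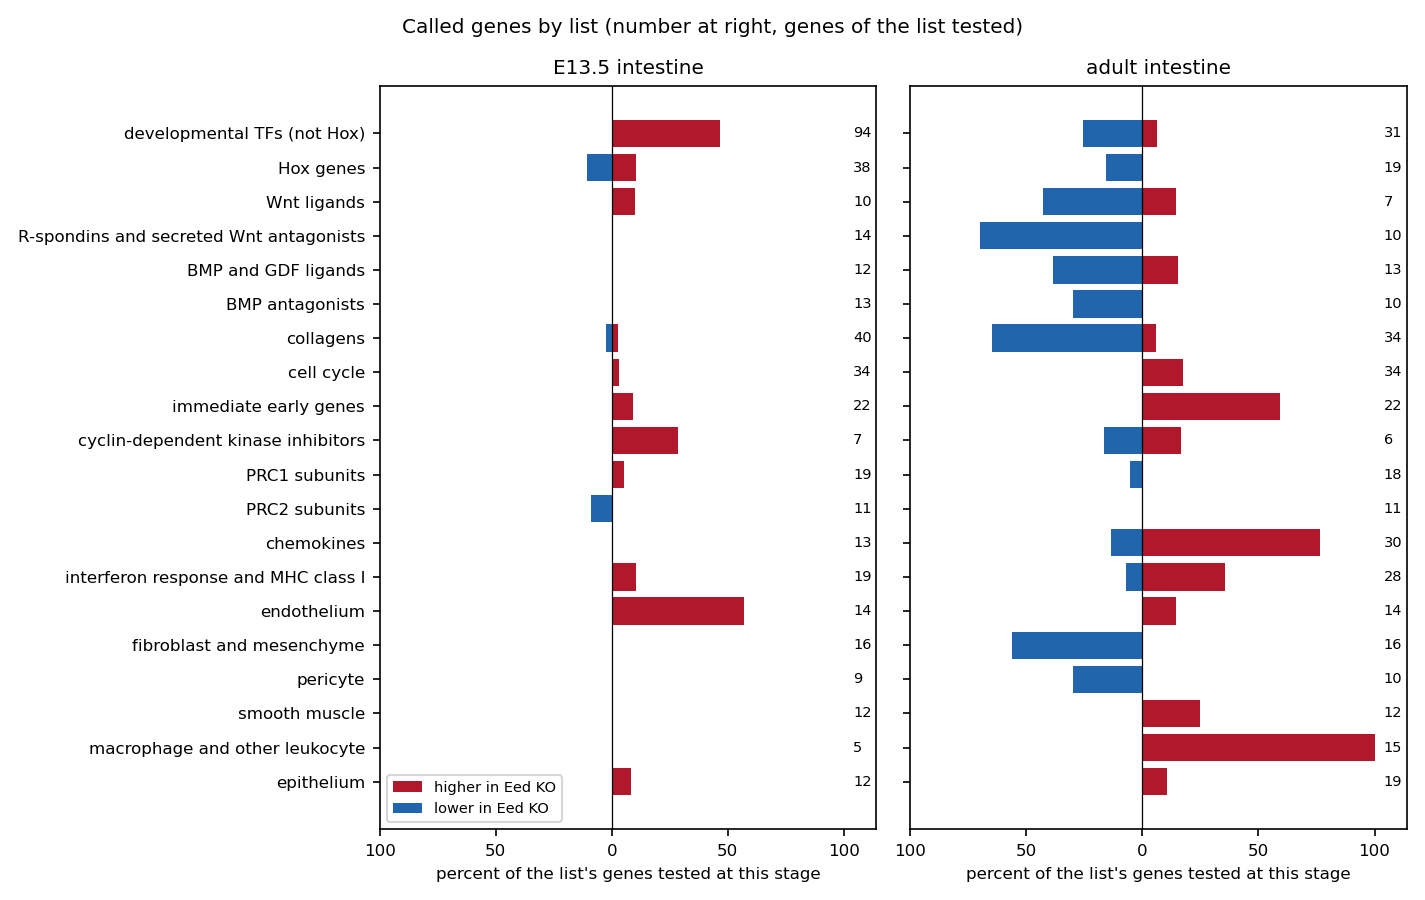
Share of each gene list called, as a percentage of its members tested at that stage (x axis, higher in *Eed* KO to the right and lower to the left; the number tested at the right edge), embryo in the left panel and adult in the right. The embryonic bars that reach farthest include developmental transcription factors (44 of 94; 19 without the first control) and endothelial markers (8 of 14; 3 without it), and the falls in the adult include collagens (22 of 34), R-spondins and Wnt antagonists (7 of 10) and fibroblast markers (9 of 16). Under scaling by fibroblast markers, which raises the adult changes of all genes alike, 3 collagens and 1 of the R-spondin and antagonist list fell. Collagens are among the markers that set this scale, which by itself lowers the count of collagens that fall, so it cannot test that fall.

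Wnt ligands gave different genes at the 2 stages. Of 19 listed, 10 were tested in the embryo, where 1 rose and none fell, beside 1.41% and 0.175% of all genes. In the adult 7 were tested, of which 1 rose and 3 fell, beside 12.3% and 7.23% of all genes. *Wnt2*, a canonical Wnt ligand of embryonic mesoderm at chr6:17988940-18030585, was at 0.0556 and 0.2 against 1.72 and 2.89 CPM in the embryo and at 0.512 and 1.12 against 1.3 and 1.93 CPM in the adult. No control overlapped an *Eed* KO library at either stage. Higher *Eed* KO values without overlap were held by 16.7% of all genes tested at both stages in the embryo and 30.2% in the adult. The embryonic rise was 4.19 (SE 0.586, adjusted p = 0.0357), the adult value 0.98 (SE 0.701, adjusted p = 0.355), and the difference −3.11 (SE 0.907, adjusted p = 0.0414). The embryonic call was lost without the first control or the second *Eed* KO library (up to 0.0599), and the difference without any 1 library except the first adult control (up to 0.183). *Wnt11*, a ligand of noncanonical signaling at chr7:98835112-98855195, was at 6.62 and 5.71 against 13 and 8.65 CPM in the embryo (0.81, adjusted p = 0.22) and at 0 and 0.0701 against 1 and 1.24 CPM in the adult. The adult counts were 26 against 1, a ratio of 31.7 (95% interval 5.21 to 1300, adjusted p = 0.0237), and the call was lost without any 1 adult library (up to 0.186) and in DESeq2. Both promoters, printed above, lay in open regions in the embryo.

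The other called Wnt ligands fell in the adult. *Wnt5a*, a noncanonical ligand, was at 470 and 379 against 384 and 382 CPM in the embryo and at 34.2 and 25.6 against 11.4 and 9.51 CPM in the adult. It fell by 1.51 in the adult (adjusted p = 0.00791) and differed between stages (−1.31, adjusted p = 0.0124; 0.0606 without the second embryonic control). *Wnt2b*, a canonical ligand, was at 32.5 and 46.7 against 39.1 and 52 CPM in the embryo and at 41.7 and 53.9 against 19 and 9.12 CPM in the adult, a fall of 1.77 (adjusted p = 0.0136). *Wnt4* fell by 1.11 in the adult (adjusted p = 0.0311), was lost without the first control or the second *Eed* KO library (up to 0.187), and its responses were not separated (adjusted p = 0.323). The secreted partners of the pathway moved the same way in the adult. Of 10 R-spondins and Wnt antagonists tested there, 7 fell and none rose, beside 7.23% of all genes, whereas none of 14 was called by edgeR in the embryo, where 4 rose and 2 fell at an unadjusted p under 0.05 and DESeq2 called 1. *Rspo2*, which amplifies Wnt signaling, was at 13.8 and 12.7 against 7.67 and 7.75 CPM in the embryo (−0.78, adjusted p = 0.0916) and at 19 and 20 against 8.33 and 5.41 CPM in the adult (−1.51, adjusted p = 0.0145). The antagonist *Sfrp1* was at 1716 and 1686 against 849 and 496 CPM in the adult, and *Dkk3* at 599 and 689 against 258 and 147 CPM. For *Rspo2*, *Sfrp1* and *Dkk3* both adult *Eed* KO libraries lay below both controls. Under scaling by the fibroblast markers none of the Wnt ligands fell, and 2 of the R-spondin and antagonist list rose and 1 fell.

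Some BMP ligands fell in the adult without a call in the embryo. Of 13 genes of the BMP and GDF list tested in the adult, 5 fell, *Bmp1*, *Bmp3*, *Bmp4*, *Bmp5* and *Bmp7*, beside 7.23% of all genes, and 2 rose, *Gdf15* and *Gdf3*, beside 12.3%, and edgeR and DESeq2 called none of 12 in the embryo, where 2 rose and 2 fell at an unadjusted p under 0.05. The adult call of *Bmp1*, a procollagen protease, was lost without the first control (adjusted p = 0.0586). *Bmp4*, a ligand of subepithelial mesenchyme, was at 108 and 119 against 119 and 130 CPM in the embryo and at 636 and 660 against 214 and 115 CPM in the adult. The adult libraries were far apart and the embryonic ones nearly level. The log2 fold change was 0.13 in the embryo and −1.98 (SE 0.308, adjusted p = 0.00485) in the adult, and the difference was −2.05 (adjusted p = 0.00531). *Bmp5* was at 84.4 and 73.7 against 79.4 and 76.2 CPM in the embryo and at 109 and 72.6 against 25 and 8.12 CPM in the adult, a fall of 2.46 (adjusted p = 0.0131). *Bmp7* was at 17.1 and 18.9 against 16.1 and 24.1 CPM in the embryo and at 32.6 and 24.6 against 7.23 and 2.63 CPM in the adult, a fall of 2.56 (adjusted p = 0.00915). *Bmp4*, *Bmp5* and *Bmp7* kept their adult calls with each library left out. *Gdf15*, a stress-induced cytokine, was at 7.83 and 9.46 against 145 and 143 CPM in the adult and at 0.401 CPM or less in the embryo. Of 7 FGF ligands tested in the adult, 2 fell, beside 7.23% of all genes, and none rose. *Fgf9* fell by 2.82 (adjusted p = 0.00772) and *Fgf10* by 2.18 (adjusted p = 0.0125), with embryonic values of −0.18 and −0.48 that did not pass.

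Markers of fibroblasts and the genes of their matrix fell in the adult. Of 16 fibroblast and mesenchyme markers, 9 fell in the adult, beside 7.23% of all genes, and none rose, and edgeR called none in the embryo, where 3 rose and 1 fell at an unadjusted p under 0.05 and DESeq2 called 1. The summed level was 30360 and 33770 against 17190 and 15730 CPM in the adult and 18250 and 23100 against 15850 and 26470 CPM in the embryo, where the genotypes overlapped. *Pdgfra*, a receptor of subepithelial fibroblasts, was at 1153 and 916 against 328 and 270 CPM in the adult, a fall of 1.79 (SE 0.219, adjusted p = 0.0018). *Col3a1*, a fibrillar collagen, was at 3930 and 4453 against 1665 and 1094 CPM in the adult and at 6331 and 7900 against 5890 and 9408 CPM in the embryo. Of 34 collagens tested in the adult, 22 fell and 2 rose, beside 7.23% and 12.3% of all genes. Of 40 in the embryo, 1 fell and 1 rose (3 and 10 at an unadjusted p under 0.05), beside 0.175% and 1.41% of all genes. *Tcf21*, a helix-loop-helix factor of visceral mesenchyme, was at 310 and 334 against 290 and 238 CPM in the embryo and at 380 and 409 against 101 and 67 CPM in the adult, a fall of 2.23 (SE 0.25, adjusted p = 0.00126). *Nkx2-3*, a homeobox gene of midgut mesenchyme, was at 152 and 179 against 136 and 141 CPM in the embryo and at 295 and 291 against 113 and 116 CPM in the adult (difference −1.04, adjusted p = 0.00893). *Pdgfrb*, the gene whose promoter drove adult Cre, was at 162 and 124 against 89.2 and 92.8 CPM in the adult (adjusted p = 0.0624). *Rgs5*, a pericyte marker, was at 13180 and 11310 against 4333 and 3069 CPM there, and carried nearly all of the summed pericyte list. Of the 10 pericyte markers tested, *Rgs5*, *Abcc9* and *Kcnj8* fell, beside 7.23% of all genes, and none rose. Without *Rgs5* the sum was 329 and 357 against 303 and 519 CPM, where the genotypes overlapped.

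Leukocyte genes moved with the adult genotype. All 15 macrophage and leukocyte markers tested rose in the adult, beside 12.3% of all genes, and their summed level was 797 and 1201 CPM in the controls and 24160 and 22690 CPM in the *Eed* KO libraries. In the embryo it was 15.7 and 18 against 13.9 and 13.3 CPM. *Ptprc*, the pan-leukocyte antigen CD45, was at 64.3 and 57.2 against 1077 and 925 CPM in the adult, and *C1qb*, a complement gene of macrophages, at 68.9 and 161 against 3591 and 3643 CPM. Both were at 0.157 CPM or less in every embryonic library. *H2-Ab1* of MHC class II was at 652 and 981 against 25710 and 31970 CPM in the adult, and the summed list of B cell and antigen presentation genes at 5394 and 6968 against 122900 and 144500 CPM. Of its 12 members tested in the adult, 6 rose and 4 fell, beside 12.3% and 7.23% of all genes. Those that fell were the plasma and B cell genes *Igj*, *Mzb1*, *Cd79a* and *Pou2af1*. Of 19 epithelial markers tested, 2 rose, *Lyz1* and *Fabp1*, beside 12.3% of all genes. *Lyz1*, a lysozyme of Paneth cells, was at 279 and 255 against 3945 and 2183 CPM, and the sum of the list without it was 426 and 335 against 599 and 514 CPM. Of 12 smooth muscle markers 3 rose, beside the same 12.3%, each lost when single adult libraries were left out (*Myh11*, *Cnn1* and *Actg2*, without the first or second control or the second *Eed* KO library, up to 0.173). The part of these cells in the adult falls and rises described above was not tested. Under scaling by the fibroblast markers, 5793 genes rose and 214 fell in the adult, and the median change was −0.14 for Hox genes, −0.12 for BMP and GDF ligands and −0.52 for collagens. The collagen value is not independent of this scale, since collagens are among the markers that set it.

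**Figure D4:**
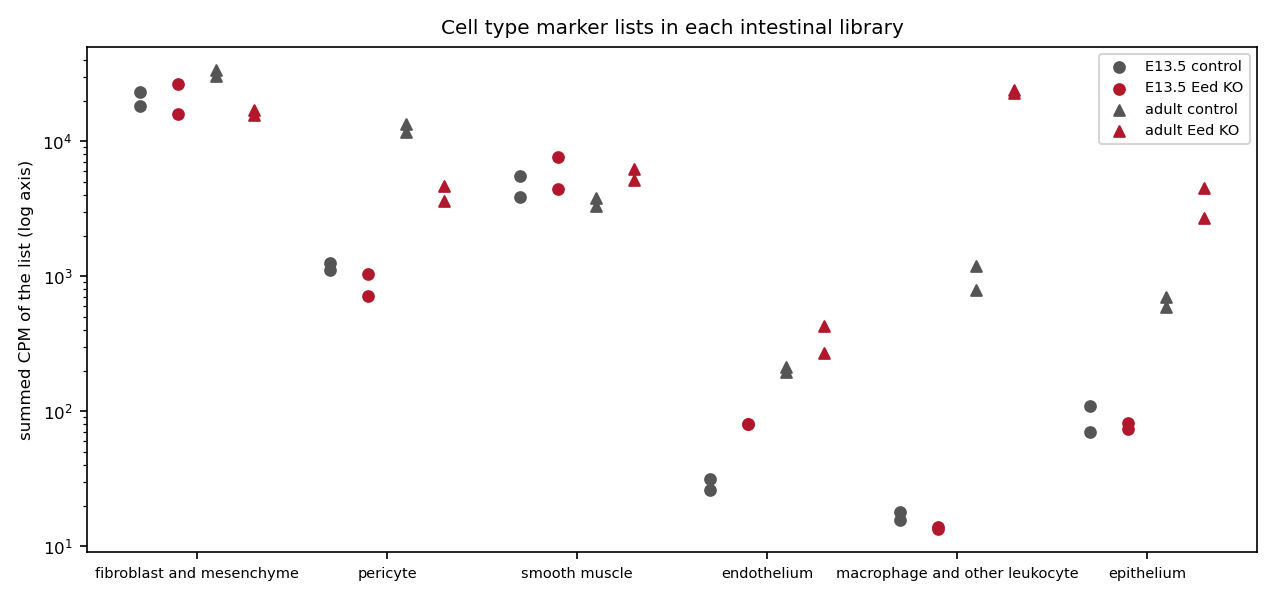
Summed CPM of cell type marker lists in each of the 8 libraries on a log axis, 1 point per library. Leukocyte markers separated adult *Eed* KO (22690 and 24160 CPM) from adult control (797 and 1201 CPM) and stayed between 13.3 and 18 CPM in the embryo, while fibroblast markers were lower in adult *Eed* KO and overlapped between embryonic genotypes.

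Many immediate early genes and chemokines rose in the adult. Of 22 immediate early genes tested, 13 rose in the adult, beside 12.3% of all genes, and 2 in the embryo, beside 1.41% (8 rose and none fell there at an unadjusted p under 0.05), *Klf4* and *Nr4a3*, both lost without either embryonic control (up to 0.118). *Atf3*, a stress-induced factor, was at 6.03 and 3.61 against 11.2 and 9.61 CPM in the embryo (1.10, adjusted p = 0.144) and at 105 and 115 against 660 and 781 CPM in the adult (2.71, adjusted p = 0.000276). *Myc* was at 32.4 and 37.6 against 36.2 and 32.1 CPM in the embryo and at 28.6 and 25.9 against 72.7 and 121 CPM in the adult. Its adult rise of 1.83 (adjusted p = 0.00421) differed from the embryonic value (difference adjusted p = 0.00523). Of 30 chemokines tested in the adult, 23 rose and 4 fell, beside 12.3% and 7.23% of all genes and in the same libraries as the leukocyte markers above, whose part in these counts was not tested, and edgeR called none of 13 in the embryo, where 3 rose and 1 fell at an unadjusted p under 0.05 and DESeq2 called 2. *Ccl2*, which attracts monocytes, was at 2.33 and 3.04 against 3.52 and 2.92 CPM in the embryo and at 80.5 and 63.1 against 535 and 969 CPM in the adult. *Cxcl12*, a chemokine of stromal cells, moved the other way, at 1919 and 1957 against 650.2 and 470 CPM in the adult (−1.79, adjusted p = 0.00199). Of 34 cell cycle genes, 6 rose in the adult, beside 12.3% of all genes, a count that was 3 without the first control or the first *Eed* KO library and 16 without the second *Eed* KO library. *Pcna*, the replication clamp, was at 273 and 255 against 236 and 209 CPM in the embryo and at 42.3 and 48.7 against 112 and 121 CPM in the adult, a rise of 1.36 (SE 0.19, adjusted p = 0.00318) that held with each library left out.

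The largest adult changes that passed the test of the difference between stages were in genes near the floor in 1 adult genotype. *Snap25*, a synaptic vesicle fusion protein, had no count in the adult controls and was at 5.92 and 3.32 CPM in the *Eed* KO, at least 41.5-fold higher, and *Tspan33*, a tetraspanin of activated B cells, was at least 34.6-fold higher. *Afp*, the fetal serum protein alpha-fetoprotein, was at least 19.9-fold higher. *Col24a1*, a fibrillar collagen, was at 3.29 and 1.54 CPM in the adult controls and at 0 in both *Eed* KO libraries, at least 18.3-fold lower, and at 8.34 and 8.21 against 5.51 and 9.08 CPM in the embryo. Among DEGs of the embryo alone, the largest such changes were in pseudogene-like copies. *Gm8730* was at 6.73 and 4.64 against 139 and 194 CPM in the embryo and at 46.8 and 54.4 against 83.4 and 72.3 CPM in the adult, and *Gm13394* at 19.6 and 16.7 against 0 and 0.0562 CPM and at 8.12 and 6.03 against 13.2 and 12.2 CPM. Annotated pseudogenes made up 8 of the 111 genes that rose and 5 of the 19 that fell in the embryo, beside 2.93% of all genes tested at both stages and 18 of the 1277 that rose in the adult.

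Accessibility in the embryo, which the calls did not use, was set beside each class. An open region lay within 1000 bases of the gene start for 91.2% of all genes tested at both stages in the control and 91.9% in the *Eed* KO. For the 111 genes that rose in the embryo the shares were 78.4% and 84.7%. Of these, 7 had a region called in the *Eed* KO list alone and none in the control list alone, beside 129 and 35 of all 12962 genes. *Cdh5* was one of the 7, with a fold enrichment of 2.3. For the 28 genes that rose at both stages the shares were 67.9% and 78.6%, and for the 73 that rose in the embryo alone 80.8% and 86.3%. Genes that rose in the embryo and were not tested in the adult had a region in 88.7% and 92.5%. Genes that rose in the adult alone had one in 88.5% and 89.9%, while those that rose in the adult and were not tested in the embryo had one in 26.4% and 32.5%. That last class was formed by failing the embryonic expression filter, with a median of 0.0139 CPM in embryonic controls. Its low share is therefore not independent of how the class was made. *Wnt5a* and *Bmp4*, which fell in the adult alone, and *Sox9*, *Tnc* and *Prrx1*, which rose in the embryo, all had open regions in both genotypes. Each genotype had 1 list made from pooled replicates, with 103808 regions in the control and 119181 in the *Eed* KO, so no test of these shares was possible and the longer *Eed* KO list raises any share. A check of CpG content by class was void, since RefSeq promoters were matched for under 80% of the genes.

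**Figure D5:**
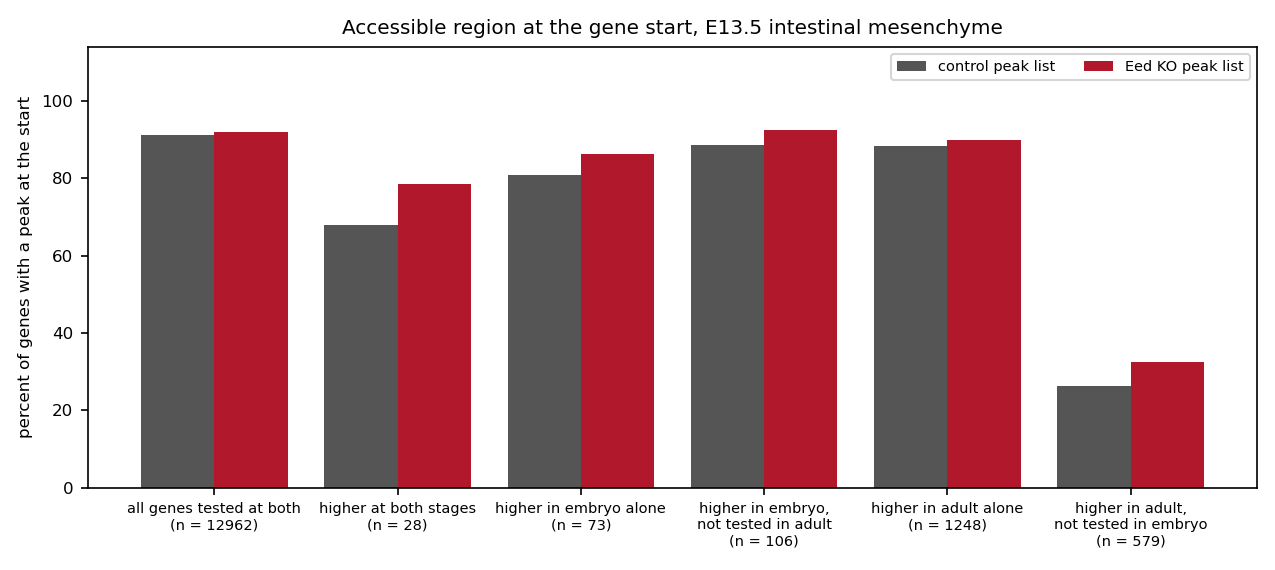
Percentage of genes with an open region within 1000 bases of the gene start in the embryonic control and *Eed* KO lists (y axis, bars from 0), by class of gene. Genes that rose in the adult and were not tested in the embryo stand lowest (26.4% and 32.5%), and genes that rose in the embryo lie between 67.9% and 92.5%. The lowest class holds only genes that failed the embryonic expression filter.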

How the data were processed

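RNA-seq of sorted GFP+ intestinal cells was analyzed in 8 libraries, with the pooled ATAC-seq lists of the E13.5 intestine. The deposited gene counts are raw whole-number counts: per the labels and methods, the authors trimmed reads with Trimmomatic 0.32, aligned them to mm10 with STAR 2.5.1b and counted them with featureCounts on GENCODE vM4, and 99 spike-in transcripts were kept out of gene totals. Embryonic libraries were stranded and poly(A) selected and adult libraries unstranded and made from low input, so overlapping and antisense genes cannot be separated in the adult. The authors called broad accessible regions with MACS2 2.1.2 on pooled replicates, and the deposited lists give fold enrichment (a ratio) and −log10 q. Fold change columns of the study were not used.

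Each stage was fitted in edgeR 4.0.16 (R 4.3.3; TMM scaling, filterByExpr, quasi-likelihood F test, two-sided, Benjamini-Hochberg adjustment over all genes tested at that stage). The 8 libraries were also fitted together with 4 group means and a spread shared between the stages, where the test was the adult minus the embryonic log2 fold change. Values are TMM-scaled CPM, with no pseudocount except 0.1 in a plot. With 2 libraries a group, an exact permutation test cannot go below p = 0.333 and was not used. Folds of genes at 0 in a group use a floor of 3 counts over the group, and ratios with few counts carry exact 95% intervals, for counting error only. Named genes were *Eed* and PRC2, Wnt and BMP genes of the study, and up to 5 genes per class by size of change (at least 1 CPM in a group, genotypes not overlapping), with examples from the gene lists and from the calls that survived leaving out libraries, some chosen after their values were seen. The members, lists and tests were chosen with earlier results of these data known. Scripts were tested on simulated data. Alternatives were DESeq2 1.42.0, no filter, spike-in scaling, a spike-in factor, a replicate block, thinned counts and single libraries left out. Scaling by fibroblast markers was added after seeing the data. The stomach libraries entered only the embryonic fit of 8 libraries. Results of 2 genes are not reported here.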

Additional observations from a re-analysis of the deposited data

Results flagged for a closer look

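Effects under the same contrast that differed between the stages, by the test of the difference in the joint fit of 8 libraries, were 1223 genes with a higher and 974 with a lower response in the adult. Values below are adult minus embryonic log2 fold changes of the named genes, and those of genes with no count in a group depend on the prior count and are no bounds.

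Among genes that moved opposite ways, the difference was −6.71 for *Clic6*, −3.95 for *Msc*, −4.76 for *Aplnr*, −4.14 for *Col15a1*, −3.95 for *Igfbp3* and 4.26 for *Myo7a*. Of these, *Col15a1* and *Myo7a* kept the call at each stage with any 1 library left out, and *Clic6* lost the adult call without either control or the first *Eed* KO library (up to an adjusted p of 0.196).

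Among genes that rose in the embryo alone, it was −5.96 for the membrane protein gene *Tmem221* and −5.43, −5.39 and −4.18 for the ribosomal pseudogene *Rps15a-ps3* and the predicted genes *Gm9625* and *Gm8730*. Among genes that fell in the embryo alone, it was 10.01 for *Gm13394*, 4.85 for *Gm4737*, 7.77 for *Gm6768*, 7.28 for *Gm3608* and 3.56 for *Eif3j2*, all called in the embryo with any 1 embryonic library left out.

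Among genes that rose in the adult alone, it was 8.53 for *Snap25*, 9.89 for *Gm766*, 9.36 for *Tspan33*, 7.25 for *Afp* and 9.13 for 2010013B24Rik, which lost its adult call without the first *Eed* KO library (adjusted p = 0.0595). The difference was lost for *Snap25* without the first embryonic control (0.0598) and for *Afp* without any 1 library except the first embryonic *Eed* KO library (up to 0.152). Among genes that fell in the adult alone, it was −9.03 for *Col24a1*, −8.64 for *Pcdhb2*, −8.49 for *Vwc2*, −6.73 for *Gm8210* and −8.49 for *Sntg1*. *Pcdhb2* lost the adult call without the second control or the second *Eed* KO library (up to 0.0773), and *Vwc2* without the first control or the second *Eed* KO library (up to 0.0637).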

How the results depend on the processing

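The adult counts of DEGs stayed within 1.5 times of their values except under spike-in and fibroblast marker scaling, while the embryonic counts, and the classes built on them, did not. Counts are given in the order embryonic rise, embryonic fall, same way, opposite ways and embryo alone. They were 464, 48, 70, 27 and 196 in DESeq2 and 820, 96, 146, 62 and 607 with no filter on low counts. They were 1061, 10, 95, 66 and 431 under spike-in scaling, with 1154 adult rises and 7432 stage differences, and 44, 14, 11, 4 and 23 with a spike-in factor, with 689 stage differences. With embryonic counts thinned to the adult depth, 106 rose, 17 fell, 21 moved the same way and 45 in the embryo alone. In the embryonic fit of 8 libraries, which includes stomach, 386 rose, 50 moved the same way and 159 in the embryo alone. With no fold threshold 17 moved opposite ways, and at an unadjusted p under 0.05 at the second stage 261 moved the same way and 137 opposite ways. Scaling by fibroblast markers, chosen after seeing the data, gave 5793 adult rises, 214 falls, 62 genes that moved the same way and 4899 in the adult alone. A region within 5000 bases raised the share of open starts among embryonic rises from 78.4% to 88.3%.

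With a replicate block, 387 rose in the embryo, 52 moved the same way, 22 opposite ways and 165 in the embryo alone. Deviations of same-numbered libraries correlated at 0.243 in the embryo and −0.0712 in the adult, and the labels tie no numbers to animals, so the samples share only a number. With each library left out in turn, embryonic rises ranged from 86 to 416 and falls from 23 to 46, adult rises from 1512 to 1856 and falls from 787 to 1288, genes moving the same way from 14 to 56, opposite ways from 4 to 39, in the embryo alone from 42 to 200, in the adult alone from 1641 to 2375, and stage differences from 1129 to 2744. The lowest embryonic values came without the first control and the highest without the first *Eed* KO library, and the lowest adult ones without the second *Eed* KO library. The lowest count of stage differences came without the first embryonic control. Limma voom, an interaction limit of 0.2 and a stricter region limit changed no count by over 1.5 times. All 33 genes that moved the same way and all 11 that moved opposite ways were called so by DESeq2, and without the first embryonic control 9 and 4 were. Of 2768 values of single named genes under these settings, none reversed, 138 lost a call and 30 gained one. The cause of these changes was not tested.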
